A study of Homo sapiens with 24 samples.

Results

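The comparison described here set 3 HEK293T libraries treated with OSMI-2 for 2 h against 3 DMSO libraries of the same experiment and time, 6 of the 24 samples of the study. HEK293T is an established human embryonic kidney line, OSMI-2 at 10 µM inhibits the O-GlcNAc transferase OGT, and DMSO, its solvent, was the control. All cells received fresh medium before treatment. Polyadenylated RNA was sequenced from stranded libraries. The study also holds OSMI-2 at 6 h and the O-GlcNAcase inhibitor TMG, each with DMSO libraries of their own, so that no control library is shared with another comparison. Nothing in the labels says whether the 3 libraries of a group came from separate cultures, and p-values measure the spread between these libraries, which may be technical.

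The members are all features of the count table of this comparison: 164219 bins in 13236 gene groups, of which 159450 are exon bins and 4769 are detained introns. A bin is a stretch of an exon or intron in which reads were counted, numbered along its gene, so that OGT_E006 is the sixth bin of OGT. Libraries carry the letters a, b and c. Total counts were 43.2 M to 51.7 M with DMSO and 63.1 M to 100.2 M with OSMI-2, and OSMI-2 b was the deepest. All 8 HEK293T marker genes had counts, with a summed level of 966 to 1003 CPM (counts scaled to a common library total) with DMSO and 972 to 986 CPM with OSMI-2. Most of this sum was VIM, at 731 to 787 CPM over all libraries. PAX2 was at 1.59 to 2.87 CPM and LHX1 at only 0.058 to 0.325 CPM. The leukocyte markers PTPRC and CD3E, the hepatocyte markers ALB, APOA1 and TTR, the endothelial markers PECAM1, CDH5 and VWF and the fibroblast marker DCN were not listed, and COL1A1 and COL3A1 summed to 8.83 to 16.7 CPM.

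O-GlcNAc is a single sugar that OGT puts on serine and threonine residues of nuclear and cytoplasmic proteins and that the O-GlcNAcase, named MGEA5 in the table, takes off. Cells adjust both enzymes when the modification is lowered or raised. A detained intron is an intron left in an otherwise spliced, polyadenylated transcript that stays in the nucleus and is not translated, so that splicing it releases messenger RNA. The usage of a bin is its count relative to the rest of its gene outside detained introns, and a change in usage is separate from a change in the level of the gene. The study asks how genes and splicing respond when O-GlcNAc is perturbed, and the comparison at 2 h covers the early response.

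At 2 h, the usage of 2 bins changed with OSMI-2, and both are the detained introns of OGT itself. Of 118605 bins with enough counts to test, these 2 passed an adjusted p of 0.05 (0.00169%; edgeR quasi-likelihood test, Benjamini-Hochberg adjustment over all bins). They were 2 of 3043 detained introns tested (0.0657%). Limma called 0 of the same introns, while the authors' deposited table and diffSpliceDGE each called 4 of the introns they tested. Of 115562 exon bins tested, 0 passed (0%), while 3514 had an unadjusted p under 0.05 (3.04%), 1520 of them higher (1.32%) and 1994 lower (1.73%) with OSMI-2. Other tests called 0 (limma), 14 (the authors' deposited table) and 25 exon bins (diffSpliceDGE in edgeR). The number with an unadjusted p under 0.05 was 6332 without OSMI-2 b and 5407 without OSMI-2 a. At the level of whole genes, edgeR called 0 of 12343 (0%) and DESeq2 1, while 163 had an unadjusted p under 0.05 in edgeR.

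OGT, on the X chromosome, has 24 exon bins and 2 detained introns, OGT_E005 (chrX:70764486-70766193, hg19, plus strand) and OGT_E007 (chrX:70766347-70767756). Between them lies OGT_E006 (chrX:70766194-70766346), an exon of 153 bases that the authors class as a cassette exon, meaning that it may be spliced in or skipped. The arrangement of exon, detained intron, cassette exon, detained intron and exon is found unbroken in the GENCODE 29 transcript OGT-210 (class retained intron), whose segment of the same widths gave the sequences below in GRCh38. The first line shows OGT_E006 in capitals between 30 bases of each detained intron, since it is the exon bin of OGT with the lowest change (chrX:71546314-71546526, GRCh38, plus strand). The second shows the last 20 bases of OGT_E004 in capitals and the start of OGT_E005 (chrX:71544616-71544655). The third shows the end of OGT_E007 and the first 20 bases of OGT_E008 in capitals (chrX:71547887-71547926).
OGT_E006: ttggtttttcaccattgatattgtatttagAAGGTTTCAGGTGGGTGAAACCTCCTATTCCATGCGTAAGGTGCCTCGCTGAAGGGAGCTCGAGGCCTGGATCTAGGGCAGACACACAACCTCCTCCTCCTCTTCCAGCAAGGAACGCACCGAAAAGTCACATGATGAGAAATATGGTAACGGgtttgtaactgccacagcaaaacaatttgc
OGT_E004 to OGT_E005: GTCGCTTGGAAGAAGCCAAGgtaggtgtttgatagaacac
OGT_E007 to OGT_E008: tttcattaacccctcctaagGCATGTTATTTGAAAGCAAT
Each intron opens with gt and closes with ag, the usual ends of an intron, so OGT_E006 has a complete splice site on each side. Read on from OGT_E004 in the frame of either of 2 protein-coding transcripts of OGT, OGT_E006 holds 5 stop codons, the first starting at its base 16. Exons of this kind are known as poison exons, because a transcript that includes them cannot make the full protein.

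OGT_E007 had 68, 106 and 82 counts in DMSO libraries a, b and c and 28, 36 and 29 in OSMI-2 libraries a, b and c, although the OSMI-2 libraries were deeper. As a share of the counts of the gene it was 3.33%, 4.22% and 4.83% with DMSO and 0.611%, 0.455% and 1.02% with OSMI-2. The groups were far apart, and every OSMI-2 library was below every DMSO library. The usage of OGT_E007 fell by 2.77 on the log2 scale (SE 0.24, n = 3 per group; edgeR adjusted p = 0.0126).

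The other detained intron of OGT had close values. OGT_E005 had 54, 84 and 65 counts with DMSO and 30, 24 and 17 with OSMI-2, or 2.66%, 3.38% and 3.87% of the gene against 0.654%, 0.304% and 0.603%. Its usage fell by 2.83 on the log2 scale (SE 0.25, n = 3 per group; edgeR adjusted p = 0.0126). With limma on the log2 ratio, neither intron passed (adjusted p = 0.99998 for both, changes of -2.73 for OGT_E005 and -2.66 for OGT_E007). Without DMSO b the adjusted p of both introns was 0.271, and without DMSO c it was 0.0567 for OGT_E007 and 0.0607 for OGT_E005 (edgeR), with changes that stayed between -2.65 and -2.80 for the pair in these fits.

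The cassette exon between the introns was scarce. OGT_E006 had 15, 18 and 11 counts with DMSO and 7, 8 and 11 with OSMI-2, which made 0.759%, 0.749% and 0.682% of the gene against 0.154%, 0.101% and 0.392%. The groups did not overlap, and OSMI-2 b was lowest. The usage change of OGT_E006 was -2.08 (SE 0.39), which did not pass (edgeR unadjusted p = 2.2e-04, adjusted p = 0.99997). Among all genes, 503 exon bins lie directly between 2 detained introns, and 452 of them were tested. Their median usage change was -0.0018, and OGT_E006 had the lowest, followed by DNM1_E017 at -0.82 (SE 0.34) and CCDC66_E021 at -0.59 (SE 0.28).

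The 4 exon bins of OGT upstream of the introns had larger shares in every OSMI-2 library than in any DMSO library. OGT_E004, the exon next to the first detained intron, held 0.809%, 0.624% and 0.558% of the gene with DMSO and 1.65%, 1.08% and 1.03% with OSMI-2, a usage change of 0.91 (SE 0.26). OGT_E003 held 1.77%, 1.33% and 1.36% against 3.20%, 2.21% and 2.32%, a change of 0.79 (SE 0.20). The values went down with distance from the introns, to 0.46 (SE 0.17) for OGT_E002 and 0.33 (SE 0.15) for the first exon OGT_E001. None of the 4 passed (edgeR adjusted p = 0.99997 for each), and groups that do not overlap were found in 7.81% of all exon bins tested.

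Downstream of the introns the shares were alike in both groups. The 19 exon bins from OGT_E008 to OGT_E026 had usage changes from -0.21 (OGT_E009, SE 0.22) to 0.20 (OGT_E013, SE 0.22), and in 18 of them the groups overlapped. OGT_E008, directly after the second intron, had 1.72%, 1.66% and 2.17% with DMSO and 2.15%, 1.60% and 2.00% with OSMI-2. The last exon OGT_E026, which holds the largest share, ran from 37.5% to 43.7% with DMSO and from 33.4% to 41.8% with OSMI-2. Within the gene, groups that did not overlap were thus limited to bins OGT_E001 to OGT_E007 and OGT_E018. In OGT_E018 the shares were 2.07% to 2.17% against 2.18% to 2.41%, and the usage change of 0.11 was smaller than its SE of 0.12.

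**Figure D1:**
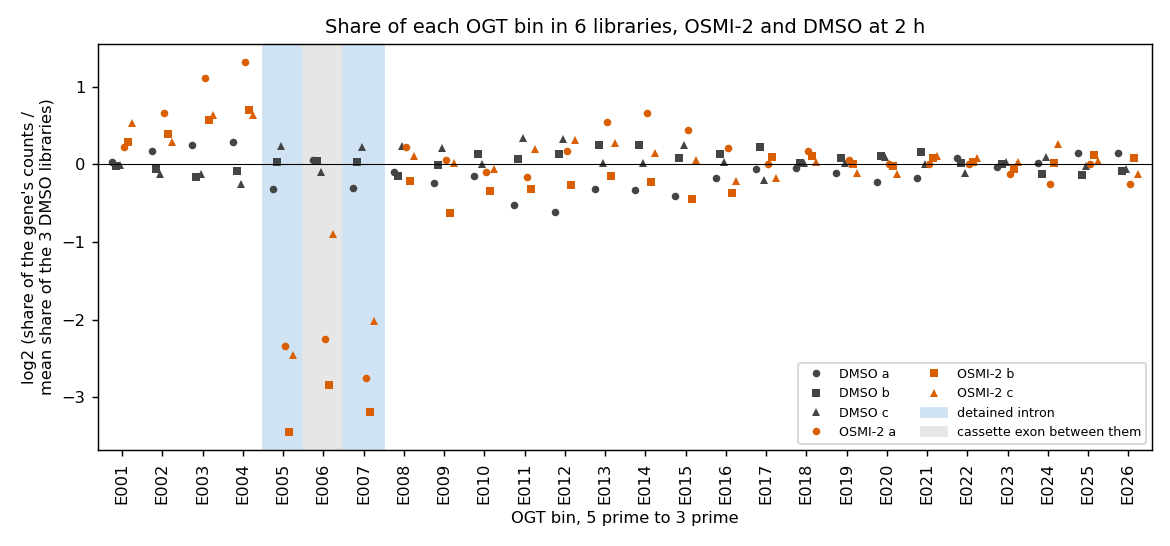
Share of each OGT bin in the counts of the gene, as log2 of the ratio to the mean of the 3 DMSO libraries, with bins in order along the transcript and 1 point per library (DMSO dark grey, OSMI-2 orange). OSMI-2 points lie above DMSO points from E001 to E004, below them from E005 to E007, and mixed with them in nearly all bins after that.

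The level of the gene itself did not pass. OGT was at 41.4, 54.3 and 30.7 CPM with DMSO and at 62.4, 83.1 and 41.8 CPM with OSMI-2, scaled by TMM, a correction of library size. The ranges overlapped, since OSMI-2 c was below DMSO b. In such bulk samples fewer cells of a kind and less RNA per cell cannot be told apart. For OGT the log2 change was 0.57 (SE 0.26; edgeR adjusted p = 0.999). MGEA5 was at 78.5, 93.8 and 58.8 CPM with DMSO and at 52.1, 57.5 and 39.7 CPM with OSMI-2. These ranges did not overlap, and the log2 change was -0.63 (SE 0.20; edgeR adjusted p = 0.999).

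MGEA5, on the minus strand of chromosome 10, has 18 exon bins and 2 detained introns with changes of opposite sign. MGEA5_E008 (chr10:103553756-103555130) had 33, 42 and 27 counts with DMSO and 11, 22 and 10 with OSMI-2, or 0.872%, 1.001% and 0.867% of the gene against 0.288%, 0.401% and 0.374%. The groups were apart, with a usage change of -1.35 (SE 0.20). It did not pass (edgeR adjusted p = 0.714) but passed in the authors' deposited table (adjusted p = 0.00598). The exon bin that joins it on the 5 prime side, MGEA5_E009, had 10, 10 and 13 counts against 3, 9 and 6, a usage change of -0.97 (SE 0.37). The other detained intron, MGEA5_E003, had 20, 15 and 23 counts against 29, 48 and 31, with 0.360% to 0.740% of the gene with DMSO and 0.757% to 1.15% with OSMI-2, a usage change of 0.78 (SE 0.25; edgeR adjusted p = 0.99997). On either side of this pair, MGEA5_E007 had a usage change of -0.35 (SE 0.14) with overlapping groups, and MGEA5_E010 one of -0.15 (SE 0.10) with groups just apart. The other exon bins tested ran from -0.23 (MGEA5_E019) to 0.21 (MGEA5_E020).

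Outside these genes, the exon bin with the smallest p was TLK2_E009, chosen for description after its values were seen because its mean is under the 50 counts asked of named bins. TLK2 is a kinase that acts on histone chaperones during DNA replication. The bin (chr17:60629663-60629758, hg19, plus strand) is an exon of 96 bases. An exon of that width, with the same distance to neighbours of the same widths, is in 5 protein-coding GENCODE 29 transcripts, and 1 transcript joins both neighbours without it. In 1 of these it is coding over its whole length, and its 32 codons leave the reading frame intact. Its sequence is shown because the whole exon is the bin that differed between the groups (chr17:62552302-62552397, GRCh38, plus strand, the exon in capitals).
TLK2_E009: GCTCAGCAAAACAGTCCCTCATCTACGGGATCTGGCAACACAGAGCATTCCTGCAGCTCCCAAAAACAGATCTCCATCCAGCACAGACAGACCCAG

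TLK2_E009 had 2, 4 and 2 counts in DMSO libraries a, b and c and 25, 23 and 22 in the OSMI-2 libraries. Its share of TLK2 was 0.187%, 0.298% and 0.151% with DMSO and 1.29%, 1.02% and 1.48% with OSMI-2. The lowest OSMI-2 library was thus above the highest DMSO library, and the libraries of each group were close. However, the bin met the count filter only through the OSMI-2 libraries, where it was high. Its separate groups and its p-values are therefore no independent support. The usage change was 2.504 (SE 0.36), which did not pass (edgeR adjusted p = 0.714). It passed in the authors' deposited table (adjusted p = 0.00161) and with the exon-level test of diffSpliceDGE in edgeR (adjusted p = 0.0266). The exons on each side had overlapping shares, 1.41% to 2.60% against 2.27% to 2.66% for TLK2_E008 and 1.56% to 2.44% against 2.13% to 3.10% for TLK2_E010. Yet all tested bins from TLK2_E002 to TLK2_E012 had usage changes above 0, and TLK2_E011 (0.40, SE 0.17) had separate groups. The tested bins after TLK2_E012 were below 0, except TLK2_E022 at 0.09 (SE 0.14). In the other tables the usage change of TLK2_E009 was 0.95 (SE 0.70) with OSMI-2 at 6 h, -0.33 with TMG at 2 h and 0.01 with TMG at 6 h.

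VOPP1, a gene often co-amplified with EGFR, had bins with opposite changes at its 5 prime end. Its first exon VOPP1_E008 (chr7:55639964-55640200, minus strand), also named after its values were seen, had 18, 16 and 13 counts with DMSO and 9, 7 and 6 with OSMI-2, or 1.27%, 1.32% and 0.975% of the gene against 0.387%, 0.241% and 0.340%. The groups were apart, with a usage change of -1.90 (SE 0.29, edgeR adjusted p = 0.912, adjusted p = 0.00645 in the authors' deposited table). This bin met the count filter only through the DMSO libraries, where it was high, so these values are no independent support. The third bin from the 5 prime end, VOPP1_E006 (chr7:55565306-55565383), had 3.03%, 2.31% and 2.25% against 4.56%, 3.68% and 4.36%, a usage change of 0.73 (SE 0.17). The bin between them, VOPP1_E007, ranged from 0.0750% to 1.20% within DMSO and overlapped with OSMI-2 (1.13% to 1.42%).

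By the naming rule, 10 exon bins with higher and 10 with lower usage were taken, and since 0 exon bins passed, all 20 had the smallest p-values among bins with separate groups and 50 or more counts on average. Their edgeR adjusted p was 0.99997. The higher 10 had usage changes from 0.47 to 1.13. By position, 2 of them are first bins, 3 are last bins and 5 are internal.

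CSNK2A1_E008, a constitutive exon of the catalytic subunit of casein kinase II (chr20:478365-478424), held 1.26%, 2.00% and 1.32% of the gene with DMSO and 4.13%, 2.19% and 3.53% with OSMI-2, a change of 1.08 (SE 0.25). Its neighbour CSNK2A1_E009 had 77, 58 and 4 counts with DMSO and 274, 141 and 162 with OSMI-2, a change of 1.42 (SE 0.53), with DMSO c far below the others. CSNK2A1 has a near-identical processed copy in the genome, so its counts are uncertain. CTU1_E001, the last exon of an enzyme that thiolates transfer RNA, held 11.6%, 14.6% and 16.6% against 20.1%, 29.5% and 21.4%, a change of 0.90 (SE 0.20). HES4_E004, in a transcriptional repressor of the Notch pathway, held 16.7%, 15.8% and 19.5% against 21.3%, 24.3% and 22.4%, a change of 0.48 (SE 0.10). C17orf89_E004, the last exon of a gene also known as NDUFAF8, which assembles respiratory complex I, held 50.8%, 47.7% and 55.7% against 58.5%, 67.0% and 60.6%, a change of 0.63 (SE 0.14).

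The other higher bins were ZNF771_E001 (zinc finger protein), VOPP1_E006 (above), MAN2A2_E016 (a mannosidase of the Golgi), MXD3_E022 (a partner of MAX), PCSK1N_E001 (an inhibitor of a prohormone convertase) and NBPF12_E041, whose family has many near-identical copies, so that its counts are uncertain. ZNF771 has only 2 bins, and its second, ZNF771_E002, appears among the lower bins with the mirror value. ZNF771_E001 held 20.2%, 21.2% and 24.1% of the gene with DMSO and 28.6%, 32.4% and 30.4% with OSMI-2, a change of 0.65 (SE 0.12; authors' deposited adjusted p = 0.00389).

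The lower 10 had usage changes from -0.42 to -1.46, and 5 of them are the first bin of their gene. SLBP_E009, the first exon of the protein that binds the stem-loop of histone messenger RNA (chr4:1713857-1714030), held 3.86%, 3.999% and 2.31% with DMSO and 1.65%, 0.805% and 1.59% with OSMI-2. The groups did not overlap, and OSMI-2 b was lowest. The change was -1.46 (SE 0.27), and the next exon SLBP_E008 had -0.61 (SE 0.14), while SLBP_E007 had -0.04 (SE 0.11). SLBP_E009 passed with diffSpliceDGE (adjusted p = 0.0226). ABHD12_E022, the first exon of a lysophospholipase (chr20:25371149-25371618), held 3.71%, 3.96% and 3.03% against 2.15%, 1.27% and 2.03%, a change of -1.02 (SE 0.18). CRLS1_E001, the first exon of the cardiolipin synthase (chr20:5986740-5987480), held 7.61%, 8.39% and 6.21% against 5.11%, 3.34% and 4.41%, a change of -0.93 (SE 0.18).

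The first bins RRP36_E001 (ribosome assembly) and GGA2_E021 (sorting at the Golgi) had changes of -1.05 (SE 0.21) and -0.65 (SE 0.13). NADK_E012, in NAD kinase, is classed as a first exon but has bins upstream of it, and its change was -0.95 (SE 0.18). The others lay elsewhere in their genes. AKAP8L_E001, the last exon of a nuclear anchoring protein, held 3.605%, 2.90% and 2.45% against 1.81%, 1.06% and 1.53%, a change of -1.07 (SE 0.19). This bin passed with diffSpliceDGE (adjusted p = 0.0180). FLT4_E025, an internal exon of the receptor VEGFR3, held 1.87%, 2.15% and 2.00% against 1.32%, 1.10% and 1.29%, a change of -0.71 (SE 0.13; authors' deposited adjusted p = 0.0160). NDUFS8_E008, the last exon of a core subunit of complex I, held 12.6%, 12.4% and 10.9% against 8.84%, 9.06% and 9.70%, a change of -0.42 (SE 0.08; authors' deposited adjusted p = 0.0160).

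OSMI-2 b stood at the extreme in most of these bins. It was the lowest of the 6 libraries in 9 of the 10 lower bins and the highest in 6 of the 10 higher bins. Without it SLBP_E009 was at -1.10, ABHD12_E022 at -0.78, CTU1_E001 at 0.67, and CSNK2A1_E008 at 1.36. All 20 kept their sign, but the condition of separate groups all but fixed that in advance.

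**Figure D2:**
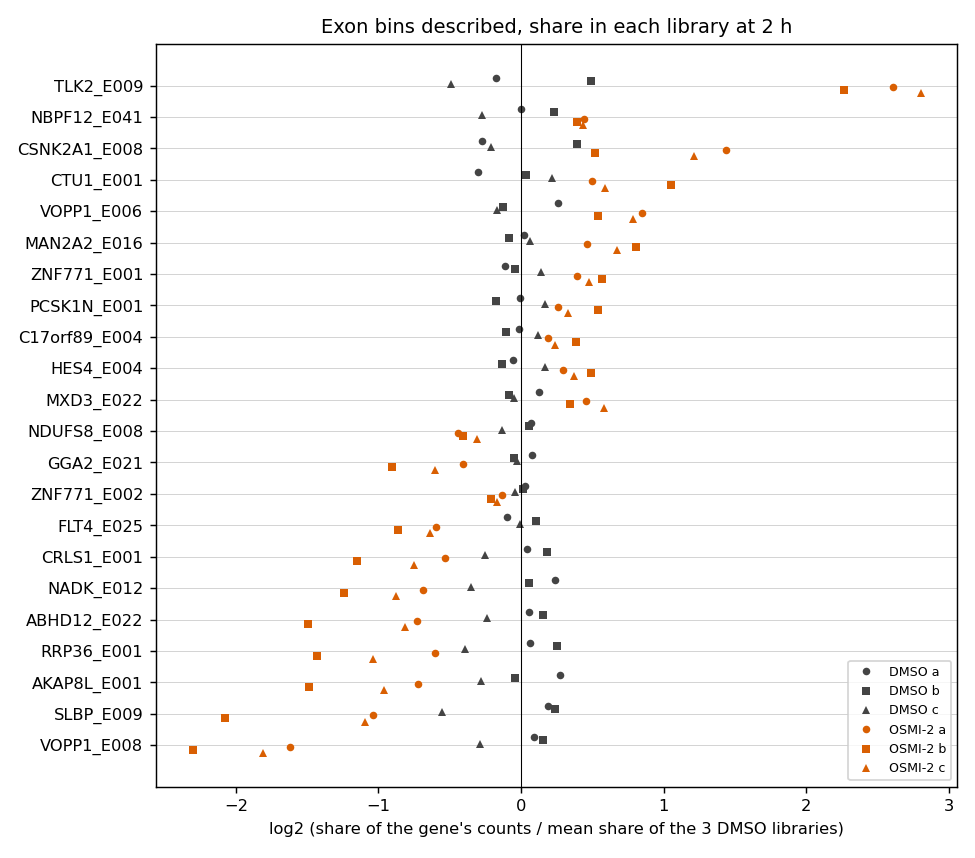
Share of 22 exon bins in the counts of their gene, as log2 of the ratio to the mean of the 3 DMSO libraries, with 1 point per library (DMSO dark grey, OSMI-2 orange). The groups do not overlap in any of these bins, which was a condition for 20 of them, and OSMI-2 b, the orange square, is the lowest point of 9 of the 10 lower bins taken by the rule.

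The authors' deposited table called 18 of 161569 bins (0.0111%). By kind, 14 of 156819 exon bins (0.00893%) and 4 of 4750 detained introns (0.0842%) passed. They comprise both OGT introns, MGEA5_E008 and a detained intron of QTRTD1, an enzyme that modifies transfer RNA. QTRTD1_E008 had 8, 4 and 12 counts with DMSO and 27, 61 and 27 with OSMI-2 (usage change 1.53, SE 0.32; edgeR adjusted p = 0.99997). The 14 exon bins include TLK2_E009, VOPP1_E008, FLT4_E025, NDUFS8_E008, both ZNF771 bins, AP1S2_E010, ATP5D_E003, FAM210B_E001, PDCD7_E005, POLR2G_E001, RPL11_E001 and SDF4_E009. All 14 had separate groups. Some of them differed by little: RPL11_E001, the first exon of a ribosomal protein, held 5.37%, 5.42% and 5.58% with DMSO and 6.13%, 5.89% and 6.30% with OSMI-2, a usage change of 0.17 (SE 0.06). POLR2G_E001, the first exon of an RNA polymerase II subunit, held 6.66%, 6.47% and 6.54% against 7.19%, 7.25% and 7.44%, a change of 0.17 (SE 0.06).

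First exon bins had a small p more often than internal or last ones, and the direction rested on 1 library. Of 7871 first bins tested, 750 had an unadjusted p under 0.05 (9.53%), 579 lower and 171 higher with OSMI-2, against 2.53% of 97428 internal bins and 2.94% of 10263 last bins. Among bins of the constitutive first class it was 327 of 2993 (10.9%), 278 of them lower. Cassette exons had 77 of 3341 (2.30%), 38 higher and 39 lower, and mutually exclusive exons had 17 of 583 (2.92%). Yet the median change of all first bins was 0.007, with quartiles of -0.17 and 0.11.

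OSMI-2 b was the lowest of the 6 libraries in 499 of the 579 lower first bins (86.2%). The median log2 ratio of a first bin to the rest of its gene was -4.33, -4.26 and -4.30 in DMSO a, b and c and -4.18, -4.54 and -4.28 in OSMI-2 a, b and c, so OSMI-2 a was above and OSMI-2 b below all others. The group means differed by -0.04 (exact permutation test, two-sided, p = 0.9; 3 against 3 libraries cannot give less than 0.1). Without OSMI-2 b the balance turned, with 319 first bins lower and 800 higher at an unadjusted p under 0.05, and the median of first bins was 0.09. Without OSMI-2 a 1080 were lower and 91 higher, and the median was -0.06.

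**Figure D3:**
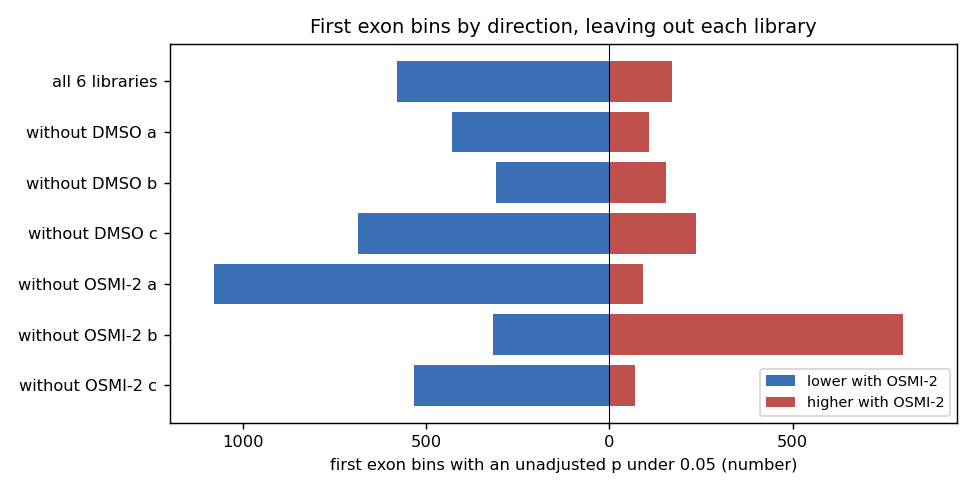
Number of first exon bins with an unadjusted p under 0.05, lower (blue, to the left) and higher (red, to the right) with OSMI-2, for all 6 libraries and with each library left out. Lower bins outnumber higher ones in every case except without OSMI-2 b, where 800 were higher and 319 lower.

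Last exon bins held 19.1%, 17.4% and 17.5% of all counts in DMSO a, b and c and 16.7%, 18.6% and 17.1% in OSMI-2 a, b and c, so DMSO a and OSMI-2 b had the highest shares (exact permutation test between groups, two-sided, p = 0.5). First exon bins held 6.20%, 6.07% and 6.12% against 6.47%, 5.95% and 6.40% (exact permutation test, two-sided, p = 0.4). Detained introns held 0.239%, 0.276% and 0.272% against 0.244%, 0.232% and 0.278% (exact permutation test, two-sided, p = 0.7). The slope of log2 gene counts on the GC content of transcripts was 0.639 to 0.731 per 10 points in OSMI-2 b and DMSO a and b, and 0.937 to 0.995 in the other 3 libraries. With 1 library of a group in each of these sets, values within a set could not be tested. With the set as a term in the fit, 726 first bins were lower and 97 higher at an unadjusted p under 0.05.

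Among all detained introns tested, the OGT pair included, 61 were higher (2%) and 175 lower (5.75%) at an unadjusted p under 0.05. Together these were 7.76% of 3043, and 283 had separate groups (9.3%). The median usage change was -0.07. The naming rule gave 5 in each direction, of which only OGT_E007 passed. On the lower side, EIF3D_E004 in a subunit of translation factor eIF3 held 0.633%, 0.661% and 0.709% of its gene with DMSO and 0.502%, 0.522% and 0.567% with OSMI-2, a change of -0.34 (SE 0.08). TOM1_E015, in an endosomal sorting gene, held 1.41%, 1.73% and 1.65% against 1.05%, 1.01% and 1.18%, a change of -0.58 (SE 0.13). ENO1_E012, in the glycolytic enzyme enolase, and TBRG4_E005, in a regulator of mitochondrial RNA, had changes of -0.62 (SE 0.13) and -0.42 (SE 0.09). Without DMSO c, ENO1_E012 was at -0.81 and passed (edgeR adjusted p = 0.0440).

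On the higher side, EIF2B1_E002, in a subunit of the exchange factor eIF2B, had 33, 34 and 18 counts with DMSO and 144, 271 and 34 with OSMI-2. Its share was 1.05%, 1.04% and 0.656% against 3.86%, 4.46% and 1.08%, so OSMI-2 c sat just above the DMSO libraries and far below the other treated ones. The change was 1.82 (SE 0.45, edgeR adjusted p = 0.99997), and EIF2B1_E002 passed with diffSpliceDGE on all libraries (adjusted p = 0.0111). Without OSMI-2 c its change was 2.22 and passed (edgeR adjusted p = 0.0201). A pair of adjoining detained intron bins of GLTSCR2, a nucleolar protein gene, had changes of 0.36 (GLTSCR2_E011, SE 0.08) and 0.24 (GLTSCR2_E012, SE 0.09). They abut with no exon bin between them, so they are not shown to be separate introns. GLTSCR2_E011 also carries the class unclassified. SMEK2_E018, in a regulatory subunit of protein phosphatase 4, held 5.85%, 4.65% and 5.78% with DMSO and 7.04%, 12.4% and 7.67% with OSMI-2, so OSMI-2 b was far above the others. Its change was 0.83 (SE 0.26), and 0.46 without OSMI-2 b. The last, S100B_E010, had 0.54 (SE 0.15), but the name of its group is uncertain, since the table places the bin at chr21:9875196-9881873.

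The described bins differed in how their 2 h values compared with those at 6 h of OSMI-2, which had 2 treated libraries and its own DMSO. The OGT bins had the same sign at both times: OGT_E005 had -2.83 at 2 h and -2.88 at 6 h, OGT_E007 -2.77 and -2.96, and OGT_E006 -2.08 and -3.56. None of the differences passed when the change at 2 h was tested against that at 6 h in 1 fit (edgeR adjusted p = 0.994, 0.963 and 0.432). OGT_E003 had 0.79 and 0.55 and OGT_E004 0.91 and 0.45, with edgeR adjusted p for the difference of 0.883 and 0.779. MGEA5_E008 had -1.35 and -2.02, and VOPP1_E006 0.73 and 0.66.

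In contrast, 9 of the 10 lower exon bins of the naming rule had values above 0 at 6 h, NDUFS8_E008 being the exception. SLBP_E009 had -1.46 at 2 h and 0.96 at 6 h, CRLS1_E001 -0.93 and 0.77, and VOPP1_E008 -1.90 and 0.41, and the difference between times passed for all 3 (edgeR adjusted p = 0.00374, 0.00262 and 0.00491). The bins had been picked by their 2 h values, which by itself widens such differences. At 6 h the first bins of the whole table had a median change of 0.17, with 1865 higher and 150 lower at an unadjusted p under 0.05, and with TMG the median was -0.05 at both times. With TMG at 6 h, NDUFS8_E008 alone of the 10 lower exon bins was above 0 (0.06). SLBP_E009 had -1.15 and CRLS1_E001 -0.47 there, and neither passed (edgeR adjusted p = 0.644 and 0.803). Why the direction with TMG at 6 h was that of OSMI-2 at 2 h was not tested.

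**Figure D4:**
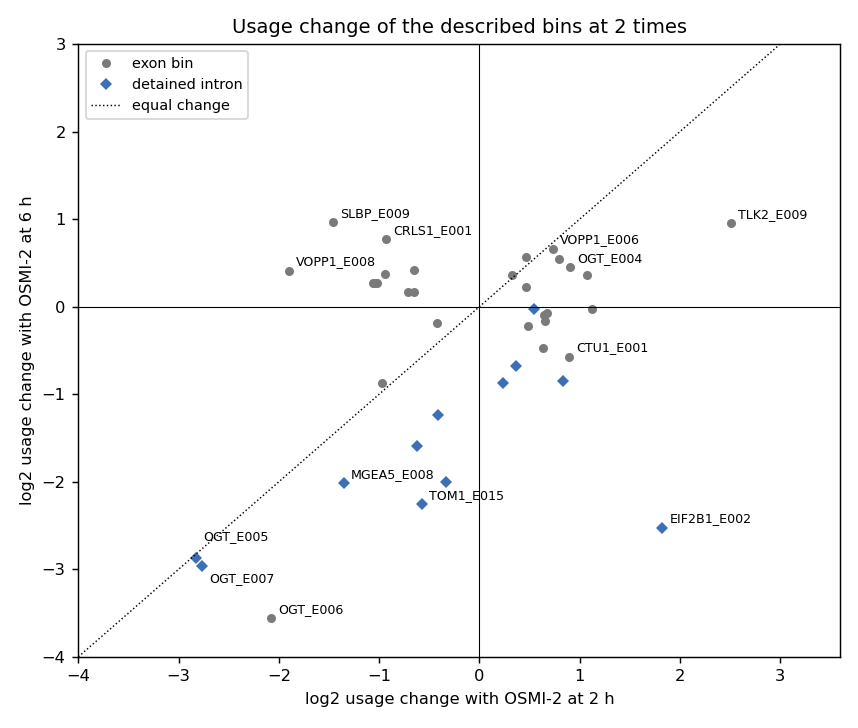
Log2 usage change with OSMI-2 at 2 h (x axis) and at 6 h (y axis) for the bins described, exon bins as grey circles and detained introns as blue diamonds, with a dotted line where both are equal. The OGT introns lie near the line, while the lower exon bins SLBP_E009, CRLS1_E001 and VOPP1_E008 have values of opposite sign at the 2 times.

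At the gene level, 163 of 12343 genes had an unadjusted p under 0.05 (1.32%), 51 higher (0.413%) and 112 lower (0.907%), and 563 had separate groups (4.56%). The first of these counts was 926 without DMSO c, 684 without OSMI-2 b and 96 without DMSO a or DMSO b. DESeq2, run as an alternative, called 1 gene, CTXN1, a neuronal membrane protein gene, with a log2 change of -1.69 (adjusted p = 0.00171). CTXN1 was at 3.35, 4.74 and 2.21 CPM with DMSO and at 1.20, 0.569 and 1.37 CPM with OSMI-2 (edgeR log2 change -1.73, SE 0.36, adjusted p = 0.999). The groups were separate, with OSMI-2 b lowest, and the table counts the gene in 1 bin. C19orf52 and HMX1, which follow by p among lower genes, are likewise counted in 1 bin each and had log2 changes of -0.85 (SE 0.22) and -1.27 (SE 0.32). So is another, listed under a clone name.

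C17orf89, the last of the 5 lower genes, was at 172, 151 and 130 CPM with DMSO and 116, 101.3 and 105 CPM with OSMI-2, a log2 change of -0.49 (SE 0.14); its last exon is the bin with the higher share described above. The 5 higher genes were PDGFA, CYP4X1, ATP8B3, STARD8 and B4GALT6, with log2 changes from 0.49 to 0.69. PDGFA, a growth factor, was at 1.13, 1.08 and 1.24 CPM with DMSO and 1.67, 1.76 and 1.80 CPM with OSMI-2 (0.60, SE 0.19). B4GALT6, a lactosylceramide synthase, was at 1.88, 2.33 and 2.32 CPM against 2.45, 4.39 and 3.49 CPM (0.67, SE 0.24). None of the 10 passed (edgeR adjusted p = 0.999 for each).

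No gene of the 7 lists passed (edgeR). Of the 8 genes of O-GlcNAc cycling and UDP-GlcNAc synthesis, 4 were above and 4 below 0, with a median of -0.015, against -0.0093 for all genes. OGT and MGEA5 were its highest and lowest. Of 17 SR proteins and CLK kinases tested, which steer splice site choice, 15 were below 0, with a median of -0.08 and a range from -0.22 to 0.01, and the groups overlapped for each. The smallest p-values were those of SRSF4 (-0.15, SE 0.12) and SRSF6 (-0.16, SE 0.17). Of 18 HNRNP genes, 11 were below 0 (median -0.03), with the smallest p-values for HNRNPU (-0.21, SE 0.14) and HNRNPAB (-0.16, SE 0.13).

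The early-response and stress lists had values on both sides of 0. Of 14 immediate early genes tested, 8 were above 0 (median 0.03), led by JUN at 3.14, 3.57 and 2.88 CPM with DMSO and 4.64, 3.84 and 4.22 CPM with OSMI-2 (0.41, SE 0.17), ahead of IER5 (0.30, SE 0.16). The 9 NRF2 targets had a median of 0.10, with the smallest p-value for OSGIN1 (0.29, SE 0.27). The 12 ATF4 targets had a median of 0.09, with the smallest for DDIT4 (0.28, SE 0.14) and ATF5 (0.26, SE 0.15). Of 11 heat shock genes, 6 were below 0 (median -0.15). HSP90AA1 was at 495, 493 and 377 CPM with DMSO and 349, 372 and 355 CPM with OSMI-2 (-0.34, SE 0.14; edgeR adjusted p = 0.999), and HSPA1B at 768, 646 and 596 CPM against 957, 805 and 741 CPM (0.32, SE 0.14).

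The exon bins of the splicing factors are given beside those of all genes. Of 171 exon bins tested in SR proteins and CLK kinases, 5 had an unadjusted p under 0.05 (2.92%, against 3.04% of all exon bins), and of 223 in HNRNP genes 9 did (4.04%). Of the 8 detained introns tested in SR proteins and CLK kinases, 2 were lower and 0 higher at an unadjusted p under 0.05 (median -0.10), where 5.75% of all detained introns tested were lower and 2% higher (median -0.07). Of 6 in HNRNP genes, 0 had such a p in either direction (median -0.16). In the 4 introns tested of O-GlcNAc genes, which are those of OGT and MGEA5, the median was -2.06.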

How the data were processed

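The authors deposited raw whole-number counts per bin and library, with columns of a DEXSeq result per the file headers. The deposited table also holds, per the file headers, a p-value with its adjusted form and a log2 fold change for each bin. STAR and hg19 are named in the submitters' processing notes; the counter, annotation and use of strand are not given in the sources used here, so overlapping, antisense and near-identical genes are uncertain. No count column was left unused.

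Bins were tested with edgeR 4.0.16 (glmQLFit, glmQLFTest, R 4.3.3, two-sided) on 2 counts per library, the bin and the rest of its gene outside detained introns, with library terms, after filterByExpr and a mean of at least 10 counts for the rest. Genes are sums of bins outside detained introns, with TMM scaling. A threshold of 0.05 on Benjamini-Hochberg adjusted p was used throughout. Standard errors are the absolute log2 change over the square root of F. The fits were tested on simulated data.

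Alternatives were limma 3.58.1 (pseudocount 1), DESeq2 1.42.0, diffSpliceDGE, the authors' test, other filters and scalings, a GC term and leaving out each library. The GC sets used GENCODE 29 transcripts, which gave GC for 92.7% of genes with a mean of at least 50 counts. Chi-square over degrees of freedom within groups was 5.24 to 25.3, so no library was entered again. Column letters do not match the replicate numbers of the sample titles.

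The naming rule took, among bins with separate groups and 50 or more counts on average, 10 exon bins and 5 detained introns in each direction, and 5 genes in each direction, past the threshold or by smallest p, with OGT and MGEA5 always and at most 2 genes of each list. Members, lists and rules were chosen with earlier results of these data known. Sequences come from GENCODE 29 transcripts, matched by exon widths and spacing. Values of a few genes are not reported here.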

Additional observations from a re-analysis of the deposited data

Results flagged for a closer look

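For 21 of the bins described, the usage change with OSMI-2 at 2 h differed from that at 6 h in 1 edgeR fit of both experiments (adjusted p under 0.05). All but VOPP1_E008 were picked by the naming rule, and all by their 2 h values, so the differences are not independent of that choice. Over the whole table the difference passed for 1152 of 130584 exon bins (933 higher at 2 h, 219 lower) and for 1881 of 4698 detained introns (1879 higher at 2 h, 2 lower).

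Among exon bins with a higher value at 2 h, the log2 difference (2 h minus 6 h) was 0.83 for ZNF771_E001, 0.71 for HES4_E004, 1.11 for C17orf89_E004 and 1.47 for CTU1_E001. Among exon bins with a lower value at 2 h it was -1.33 for AKAP8L_E001, -0.88 for FLT4_E025, -1.29 for ABHD12_E022, -0.83 for ZNF771_E002, -2.42 for SLBP_E009, -1.33 for NADK_E012, -1.70 for CRLS1_E001, -1.32 for RRP36_E001, -1.07 for GGA2_E021 and -2.31 for VOPP1_E008. Among detained introns it was 1.04 for GLTSCR2_E011, 4.36 for EIF2B1_E002, 1.69 for SMEK2_E018, 1.11 for GLTSCR2_E012, 0.84 for TBRG4_E005, 1.69 for TOM1_E015 and 1.66 for EIF3D_E004.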

How the results depend on the processing

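No alternative turned the sign of a called bin. Gene calls were 0 under every alternative except DESeq2, with 1. Exon bin calls were 14 in the authors' test and 25 with diffSpliceDGE (22 lower, 18 of them first bins), and 0 to 3 when 1 library was left out; without DMSO a these were IMMT_E006, PTTG1_E002 and UBE3C_E014, without DMSO c CDC34_E001, without OSMI-2 a CYTH2_E011 and without OSMI-2 b BTF3_E004, all named after their values were seen. Detained intron calls were 4 in the authors' test and with diffSpliceDGE, 0 with limma, 0 where 50 or more counts on average were required, and 0 to 3 when 1 library was left out, with 0 without DMSO b. Without DMSO c they were AP2A2_E020 (2.40) and ENO1_E012 (-0.81), with neither OGT intron. IMMT_E007 joined the OGT pair without DMSO a, and EIF2B1_E002 did without OSMI-2 c. With diffSpliceDGE the calls were the OGT pair, AP2A2_E020 and EIF2B1_E002. The causes were not tested. Both OGT introns lost the threshold with limma (adjusted p = 0.99998 over all bins), and OGT_E007 had an edgeR adjusted p of 0.0586 where 50 or more counts were required. OGT_E005, with a mean of 45.7 counts, was not tested under that requirement.

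With the column letters as a replicate block, 0 detained introns passed (edgeR adjusted p = 0.0963 for OGT_E007, 0.242 for OGT_E005) and no other count of calls moved. Whether the letters pair the libraries is not known. The deviations of same-letter libraries correlated over genes at -0.26, 0.32 and 0.54, and those of different-letter libraries at -0.59 to 0.46. So few mixed values cannot decide it. A fit with an earlier dispersion method of edgeR, added after seeing the data, called the same 2 introns. Depth limits bins such as OGT_E006 and TLK2_E009, with 2 to 25 counts per library. OGT_E006, MGEA5_E008, MGEA5_E009 and VOPP1_E008 met the count filter in every library only with DMSO. TLK2_E009 and QTRTD1_E008 did so only with OSMI-2. Each of these bins was thus tested through the group where it was high.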

Other observations

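A small set of bins switched between libraries of the same treatment. In 12 of 118605 bins tested, the share of the gene in the highest library of a group was at least 10 times that in the lowest, with at least 100 counts in the highest; 8 bins did so among DMSO and 8 among OSMI-2 libraries. These bins were chosen by that contrast, and no test is given.

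HNRNPM_E004, in a gene for an RNA-binding protein of the splicing machinery, had 648, 715 and 0 counts in DMSO a, b and c and 2009, 0 and 1 in OSMI-2 a, b and c. It was thus either at 1.97% to 3.61% of the gene or nearly absent, in both groups. MPC1_E003, in a subunit of the mitochondrial pyruvate carrier, had 100, 0 and 157 counts with DMSO and 1, 275 and 3 with OSMI-2. MAP1B_E001, the first exon of a microtubule-associated protein, had 176, 96 and 5 counts against 167, 2 and 2.

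In IMMT, a gene of the mitochondrial inner membrane, 3 adjoining bins were involved. IMMT_E006, of 15 bases, had 295, 0 and 1 counts with DMSO and 361, 478 and 241 with OSMI-2. The detained intron IMMT_E007 next to it had 10, 138 and 143 counts against 25, 34 and 20, and the intron IMMT_E005 on its other side had 12, 147 and 161 against 15, 142 and 66. DMSO a, where the small bin was present, had few counts in both introns, while DMSO b and c had the reverse. OSMI-2 b had many counts in both IMMT_E006 and IMMT_E005.

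The first exon SLC2A4RG_E001 had 52, 156 and 11 counts with DMSO and 12, 6 and 17 with OSMI-2. NUDT5_E006, a detained intron, had 105, 30 and 20 counts against 33, 51 and 235. CAPN2_E011 had 119, 161 and 104 against 146, 2 and 162, PSAP_E011 had 9, 6 and 25 against 8, 171 and 13, EIF5A_E001 had 24, 12 and 18 against 27, 34 and 239, and the detained intron DDB1_E004 had 633, 19 and 661 against 1026, 1404 and 32. No cause was tested.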
